A study of Homo sapiens with 4 samples.

Results

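The m6A sites described here are those to which the deposited site lists of HEK293T messenger RNA attach no gene name. A site was taken when it was listed in all 4 libraries, carried no gene name and was covered by at least 20 reads of A or G in every library. This gave 7031 sites, against 71478 sites in named genes under the same rule, of 78509 in all. HEK293T is a transformed line of human embryonic kidney cells, labelled wild type. One group had 36 h of ascorbic acid after 24 h of seeding (2 libraries), with the medium changed at intervals. The other group was untreated control (2 libraries). No source used here states the dose, and the labels do not say whether the 2 libraries of a group came from separate cultures. P-values therefore measure the spread between these libraries, which may be technical. The labels were compared with no cell-type marker, because the lists hold sites and not transcript levels.

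N6-methyladenosine (m6A) is an internal mark of messenger RNA. It is laid down on nascent RNA by the METTL3 and METTL14 methyltransferase, mostly on the central A of the DRACH motif, and is removed by the demethylases FTO and ALKBH5. These demethylases are dioxygenases that use iron(II), 2-oxoglutarate and oxygen, and ascorbic acid can return their iron to the reduced state; the series title puts the study's question in these terms. GLORI reads the mark by converting unmethylated A with nitrite after glyoxal protection of G, so that A is sequenced as G while m6A is still sequenced as A. The level of a site is the share of A among A plus G reads. A first transcribed A that is methylated next to the cap (m6Am) also resists conversion, and the lists do not separate it from m6A. Without a gene name, a site may lie in an intron, in RNA that runs past an annotated end, in an antisense or promoter transcript, or in a gene that the authors' annotation did not hold.

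Sequence was at hand only for promoter windows, the 300 bases from 250 before to 50 after an annotated start (RefSeq, GRCh38.p14), and 515 of the 7031 sites lay in one. The change in level with ascorbic acid in these windows differed with the letters around the A. DRACH is spelled here as A, G or T, then A or G, then the site's A, then C, then A, C or T, read on the strand of the site. The sequences below are shown because they carry that contrast, and they are the deepest sites of each class, chosen after their values were seen. They run 5′ to 3′ over 21 bases, with the 5 bases around the site in capitals and the site as the middle capital. The first 6 are DRACH sites, named by the gene whose start defines the window. Coordinates are in GRCh38.
COMMD1, chr2:61888172-61888192, minus strand: aggcctttGGACTtgccccat
EEF1B2, 204 bases before the start, chr2:206159681-206159701, plus strand: ggaggtacGAACTtaagacat
EN2, chr7:155458103-155458123, plus strand: gaagtcgaGGACTtggctctg
EEF1B2, 148 bases before the start, chr2:206159737-206159757, plus strand: aggtccatGGACAatttgtgg
RPS19, chr19:41860194-41860214, plus strand: agctttcgGAACTctcgcgag
SNRPA, chr19:40751038-40751058, plus strand: gctgcctaGGACCtgtccctt
The next 6 do not match DRACH.
RPL36, chr19:5690255-5690275, plus strand: tgagccgaGTAGAtatcccgg
FAU, chr11:65122175-65122195, minus strand: gtcgctcaGCAGTgacgtgac
RPL35, chr9:124861952-124861972, minus strand: agccccgcCTACTtcctcttt
UQCRH, chr1:46303681-46303701, plus strand: agtgacccTTACAagtccttc
RPL36A, chrX:101390975-101390995, plus strand: ggaacctcCTATAtacttccg
PTBP1, chr19:797406-797426, plus strand: ccattttgTGAGTctataact

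The libraries held 25146378 and 26816350 A plus G reads over their listed sites with ascorbic acid, and 22592887 and 28562744 in control. A library listed 132989 to 144171 sites, and 11.3% to 13.3% of them were in no named gene. Of 31358 sites in no named gene listed in any library, 8382 (26.7%) were in all 4, and of 187592 in named genes, 75601 (40.3%) were. Of the 8382, 1351 fell short of 20 reads in some library. The share of A left unconverted, given by the authors per chromosome for these sites, was taken over the 22 chromosomes with at least 100 of them. It lay between 2.39% and 4.51% and between 2.45% and 3.58% in the ascorbic acid libraries, and between 2.13% and 3.69% and between 3.30% and 4.95% in the control libraries.

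The sites in no named gene stood lower after ascorbic acid. Their median level was 35.5% and 35.3% in the ascorbic acid libraries, against 39.4% and 40.9% in the control libraries, so the groups did not overlap. The group values were 35.4% ± 0.134 with ascorbic acid and 40.2% ± 1.07 in control (SD of library medians, n = 2 each), a difference of -4.76 percentage points. An exact permutation test of these library medians, two-sided, gave p = 0.333, the smallest that 2 libraries against 2 allow. At the middle site the mean level was lower by 3.52 points (a change of -3.52), and the central 50% of sites ran from -8.70 to 0.00459 points. Of all 7031, 73.6% were lower with ascorbic acid by any amount.

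Site by site, the quasi-likelihood test of edgeR on the reads of A and G, adjusted by Benjamini-Hochberg over all 78509 sites, passed 804 sites in no named gene as fallen (11.4%) and 13 as risen (0.185%), and 6214 did not pass. Over all tested sites of the series, 25.7% fell and 0.22% rose. Both ascorbic acid libraries lay below both controls at 2778 sites (39.5%), against 55.4% over all tested sites, and above both at 463 (6.59%), against 4.22%. The count of falls moved with the number of libraries: it was 453 without ascorbic acid library 1, 402 without ascorbic acid library 2, 617 without control library 1 and 438 without control library 2. DESeq2 passed 229 falls and no rise among these sites, with 4 rises at an unadjusted p under 0.05, while limma passed 629 falls and 5 rises. The sites that fell averaged 49.3% ± 0.958 with ascorbic acid and 71.5% ± 0.754 in control (SD of library medians, n = 2 each), with a median change of -16.4 points, and 286 of them changed by more than 20 points.

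The fall at sites in no named gene was smaller than at sites in named genes. In named genes the median level was 33.7% ± 0.116 with ascorbic acid and 41.1% ± 1.21 in control (SD, n = 2 each), a difference of -7.38 points, and 19384 sites fell (27.1%). Within a library, the median of sites in no named gene minus that in named genes was 1.70 and 1.67 points with ascorbic acid, against -0.833 and -1.03 in control. The gap thus had opposite signs in the 2 groups, and its change was 2.61 points (exact permutation p = 0.333, the smallest possible).

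Depth differed between the kinds of site and moves with the share that passes a test. Sites in no named gene had a median of 57.5 reads per library, against 111 in named genes. Among sites with 20 to under 40 reads, 163 of 2061 in no named gene fell (7.91%), against 14.5% of those in named genes. At 160 reads or more, 231 of 1081 fell (21.4%), against 38.3% in named genes, so the share was lower in every band of depth plotted. The median change narrowed with depth in both kinds, from -5.34 points in the shallowest band to -2.29 in the deepest in no named gene, and from -6.88 to -4.26 in named genes.

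**Figure D1:**
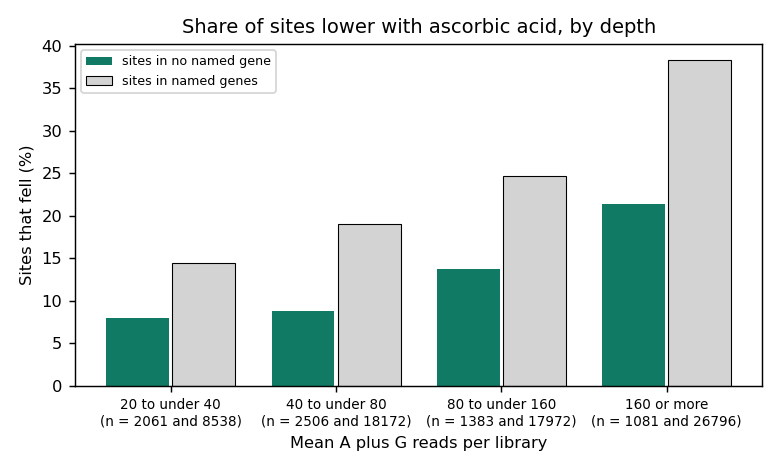
Percent of tested sites whose level fell with ascorbic acid (edgeR adjusted p below 0.05, y axis) by mean A plus G reads per library (x axis, 4 bands), for sites in no named gene (green) and in named genes (grey). The green bars go from 7.91% to 21.4% and lie below the grey ones, 14.5% to 38.3%, in all 4 bands.

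The smaller change was seen in each of 4 bands of mean level. Among sites with a mean level of 10 to 30%, 3.94% in no named gene fell and 12.8% in named genes. Between 60 and 90%, the median was 69.2% with ascorbic acid and 78.6% in control in no named gene (25.2% fell), against 69.0% and 81.5% in named genes (48.2% fell). Above 90%, sites in no named gene held 95.4% ± 0.619 with ascorbic acid and 98.96% ± 0.189 in control (SD, n = 2 each; 444 sites), a median site change of -1.77 points, while those in named genes changed by -5.12. The change in the gap was 1.08 points at 10 to 30%, 2.68 at 30 to 60%, 3.19 at 60 to 90% and 2.36 above 90%. Fewer sites were nearly full with ascorbic acid: 360 sites (5.12%) had a mean of at least 90% with ascorbic acid, against 640 (9.10%) in control, and 2891 (41.1%) lay under 30% with ascorbic acid, against 2429 (34.5%).

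Many of the sites without a name lay within RefSeq genes. Of the 7031 sites, 3718 (52.9%) lay inside the span of a gene on the same strand, in 1392 genes, 1127 (16.0%) lay up to 10000 nt beyond a 3' end on the same strand of 439 genes, and 639 (9.09%) lay opposite a gene only. A further 325 (4.62%) were in spans of genes of unknown strand. Within 1000 nt before a start on the same strand lay 274 (3.90%) that met no earlier class. Each site was placed in the first class it met: same-strand span, span of unknown strand, beyond a 3' end, opposite a gene, before a start. The 274 thus leave out sites such as those before RPL36, FAU and RPS19, which lay beyond the 3' end of another gene. Another 173 (2.46%) were on alternate or unplaced sequences, and the other 775 (11.02%) met none of these terms. The last class is not far from genes: the median distance to the nearest one was 5351 nt, and it can hold sites close to a gene of unknown strand or on the other strand. Exon and intron were not told apart here.

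Inside same-strand spans the median was 33.2% ± 0.206 with ascorbic acid and 38.4% ± 0.911 in control (SD, n = 2 each, as below), and 427 sites fell (11.5%) while 1 rose. Beyond 3' ends it was 35.7% ± 0.292 with ascorbic acid and 40.5% ± 0.643 in control, with 124 falls and 2 rises. The median change was -3.73 points inside spans and -3.89 beyond 3' ends. The highest levels were in the class that met none of the terms, 44.4% ± 0.487 with ascorbic acid against 49.8% ± 0.292 in control (median change -2.69 points), and opposite genes, 44.2% with ascorbic acid against 48.4% ± 2.21 in control (-2.59 points). In the class before a start the level was lowest, at 25.1% and 27.1% with ascorbic acid against 25% and 28.8% in control. This was the one class in which the groups overlapped, with a median change of -1.58 points and 19 falls (6.93%). Sites on alternate and unplaced sequences had a change of -5.52 points and 48 falls (27.7%), against 25.7% of all tested sites of the series, with a median depth of 131.75 reads.

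**Figure D2:**
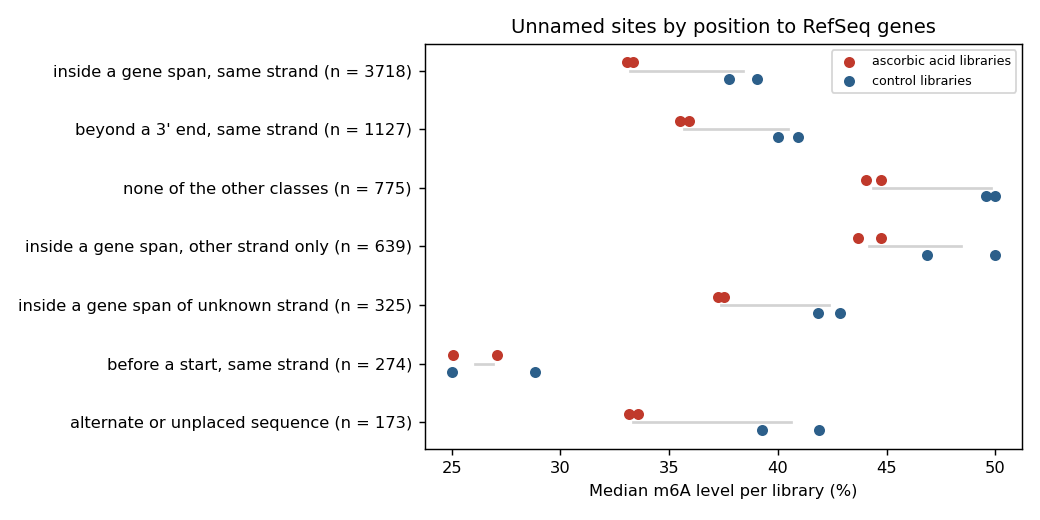
Median m6A level (percent, x axis) of each library for sites in no named gene, by position to RefSeq genes (rows), ascorbic acid in red above control in blue. The red points lie left of the blue ones in every row but that of sites before a start, where 25.1% and 27.1% stand against 25% and 28.8%.

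Among spans, 2967 sites lay in protein-coding genes (332 fell, 11.2%, median change -3.69 points), 550 in long non-coding RNA genes (57 fell, 10.4%) and 200 in transcribed pseudogenes (38 fell, 19%, median change -4.70). Over all tested sites of the series, 25.7% fell. The pseudogene sites were the deeper ones, with a median of 83.1 reads, against 54.25 in protein-coding and 52.4 in long non-coding RNA genes. Reads of pseudogenes can be shared with their parent genes, and the part of that in the pseudogene values was not tested. Within protein-coding spans, the 867 sites more than 20000 nt before the gene's 3' end held 35.7% with ascorbic acid and 41.8% in control, and 126 fell (14.5%). The 823 sites 1000 to 5000 nt before it held 30.3% with ascorbic acid and 35.1% in control, and 8.02% fell. Between them, at 5000 to 20000 nt, 125 of 1146 fell (10.9%), and in the last 1000 nt 15 of 131 (11.5%). Beyond 3' ends, 33 of 262 sites in the first 500 nt fell (12.6%, median change -4.47 points), 16 of 141 at 500 to 1000 nt (11.3%) and 34 of 224 at 1000 to 2000 nt (15.2%). At 2000 to 5000 nt 29 of 293 fell (9.90%), and at 5000 to 10000 nt 12 of 207 (5.80%, median change -1.80). This last band also holds sites at other genes. With the limit set at 5000 nt, its sites joined other classes. Sites before a start then numbered 323 and not 274, those opposite genes 730 and not 639, and those that met none of the terms 842 and not 775.

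Near starts the levels and their change differed between motif classes. Of 513 windowed sites with all 5 bases at hand, 220 (42.9%) were in DRACH, where 7.30% of the A of all windows, both strands, are. The DRACH sites held 35.3% ± 0.59 with ascorbic acid and 41.7% ± 1.26 in control, and the 293 others held 25.1% ± 0.93 with ascorbic acid and 24.6% ± 2.82 in control (SD of library medians, n = 2 each). The median change was -4.17 points at DRACH sites and -0.20 at the others. With edgeR, 26 DRACH sites fell (11.8%) and none rose, and none was higher at an unadjusted p under 0.05 by edgeR, limma, DESeq2 or Fisher's test. Of the others 2 fell (0.68%) and 1 rose, with 11 lower at an unadjusted p under 0.05. DRACH sites were lower with ascorbic acid by any amount in 80.9% of cases and the others in 52.2%.

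The difference itself was in one direction. Within a library, the DRACH median minus the other median was 10.4 and 9.97 points with ascorbic acid, against 18.2 and 16.0 in control, a change of -6.94 (exact permutation p = 0.333, the smallest possible). The contrast was also present at like levels. Among sites of 10 to 40% mean level, 114 DRACH sites changed by -3.26 points at the median and 240 others by -0.19. Between 40 and 70%, 62 DRACH sites changed by -5.58 points and 49 others by -1.04. The others were the deeper class, with a median of 76.25 reads against 50.9. In the windows of named genes the same split gave -5.61 points at 498 DRACH sites, of which 146 fell (29.3%), and -0.10 at 1442 others, of which 18 fell.

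The classes also lay in different places. On the strand of the gene, 230 of 267 sites outside DRACH (86.1%) lay from 60 nt before the annotated start to the start itself, against 47 of 146 DRACH sites (32.2%). With edgeR none of these 230 fell, with 6 lower at an unadjusted p under 0.05; limma and DESeq2 also passed none and Fisher's test on pooled reads passed 1. Opposite the gene, 74 of 100 sites were in DRACH (74.0%). The base before the site was C at 180 of the 293 sites outside DRACH (61.4%), against 30.2% of all A in the windows. DRACH sites at positions -150 to -61 from the start on the gene's strand changed by -8.18 points at the median (44 sites), and those from 60 nt before it to the start by -3.01 (47 sites). A match to DRACH describes the letters, and says nothing of which enzyme acted there.

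**Figure D3:**
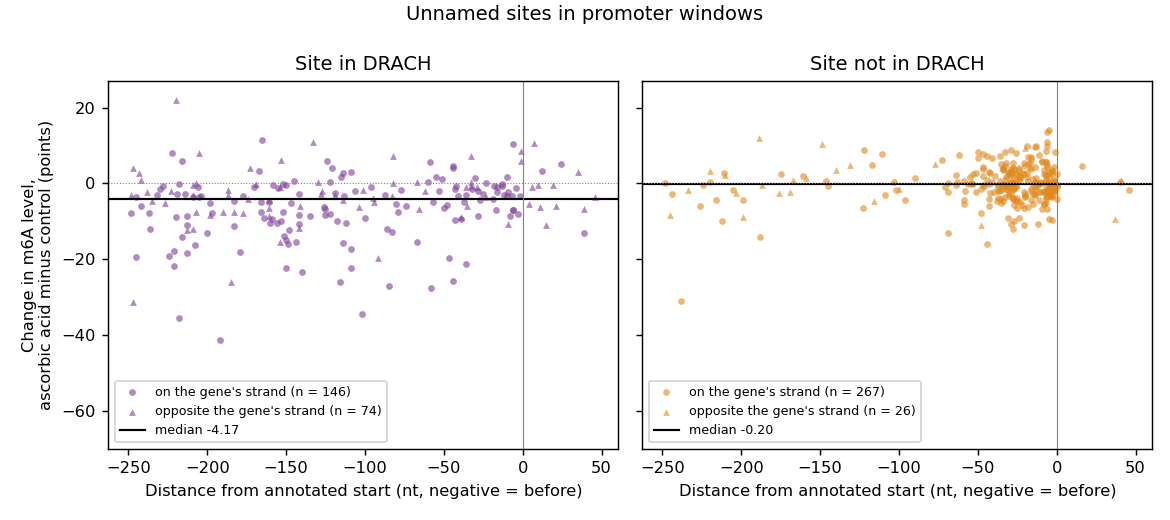
Change in mean m6A level (ascorbic acid minus control, percentage points, y axis) against distance from the annotated start (nt, x axis) for sites in DRACH (left) and not in DRACH (right), with circles for the gene's strand, triangles for the opposite strand and the median as a black line. The DRACH sites are spread over the window around -4.17 points, and the others crowd just before the start around -0.20.

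Among 5-base contexts, GGACT was the most frequent, with 64 sites at 47.0% with ascorbic acid and 54.1% in control and a median change of -4.78 points, of which 10 fell. On either strand, 44.2% of all windows hold GGACT at least once. The context GGACA had 22 sites with a median change of -5.86 points and 7 falls. Outside DRACH the most frequent were CCATT (12 sites, median change 0.22 points) and GGACG (12 sites, -0.18 points), and GGACG held both of the falls outside DRACH. Next came CCAGT (median change -2.19 points), TCACT (1.81 points) and TCATT (-1.61 points), with 10 sites each and no fall among them in edgeR. In all, 110 different contexts occurred.

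The printed sites follow the same split in part. The GGACT site in the COMMD1 window held 67.8% and 70.6% with ascorbic acid, against 82.0% and 80.5% in control, on 905 to 1328 reads per library, and fell (edgeR adjusted p = 4.72e-08). It lies on the strand opposite to COMMD1, inside the span of CCT4, which encodes a subunit of the TRiC chaperonin. The GGACA site in the window of EEF1B2, which encodes a subunit of translation elongation factor 1, held 37.2% and 35.6% with ascorbic acid, against 47.0% and 50.2% in control (edgeR adjusted p = 1.65e-05). The GAACT site upstream of the GGACA site held 19.5% and 18.6% with ascorbic acid, against 19.9% and 24.5% in control (edgeR adjusted p = 0.162). The pair thus differed in whether it passed, and the difference between them was not tested. Both sites lie before the start that defines the window but inside the span of EEF1B2, on its strand.

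The site before EN2, a homeobox transcription factor gene, was nearly full, at 95.4% and 95.0% with ascorbic acid against 97.8% and 97.1% in control, and still passed (edgeR adjusted p = 0.0102). The sites before RPS19, a small ribosomal subunit protein gene, and SNRPA, the gene of a splicing protein of the U1 particle, did not pass, with edgeR adjusted p of 0.714 and 0.743. RPS19 held 16.3% and 19.3% with ascorbic acid against 14.7% and 18.3% in control, and SNRPA 25.8% and 32.6% with ascorbic acid against 29.9% and 30.9% in control. In both, the groups overlapped.

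None of the 6 printed sites outside DRACH passed in edgeR with all 4 libraries. With 1 library left out, FAU passed as higher without control library 2 (edgeR adjusted p = 0.0101) and UQCRH as lower without control library 1 (edgeR adjusted p = 0.0314); Fisher's exact test on pooled reads also passed FAU, at an adjusted p of 0.0263. The one before RPL36, a large ribosomal subunit protein gene, had 4881 to 6550 reads per library and held 14.7% and 16.8% with ascorbic acid, against 15.9% and 15.5% in control (edgeR adjusted p = 0.951). RPL35, another gene of that subunit, had 20.5% and 20.3% with ascorbic acid and 20.98% and 20.8% in control at a site 5 nt before its start (edgeR adjusted p = 0.815). FAU, which encodes a ribosomal protein fused to a ubiquitin-like domain, had 26.1% and 31.0% with ascorbic acid and 22.7% and 29.0% in control (edgeR adjusted p = 0.238). UQCRH, of respiratory complex III, had 23.1% and 24.8% with ascorbic acid and 23.9% and 28.3% in control, and the adjusted p by edgeR was 0.278. RPL36A had 14.1% and 16.0% with ascorbic acid and 14.4% and 16.9% in control. PTBP1, a splicing regulator, had 17.0% and 15.7% with ascorbic acid and 16.5% and 19.4% in control. The groups overlapped at each of these sites but the one before RPL35.

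Of the 10 largest single falls, 5 lay in same-strand spans of RefSeq genes whose names the lists do not attach to the site. The site at chromosome 22, position 31080601, plus strand, in the span of SMTN, the gene of the cytoskeletal protein smoothelin, held 19.8% and 21.2% with ascorbic acid, against 68.7% and 71.0% in control, on 262 to 365 reads per library. Its means were 20.5% ± 1.02 with ascorbic acid and 69.8% ± 1.60 in control (SD, n = 2 each), and the adjusted p by edgeR was 3.84e-18. The largest fall in points was on the alternate sequence 16_KI270853v1_alt, position 539335, plus strand, at 27.3% and 32.2% with ascorbic acid against 73.3% and 88.9% in control (edgeR adjusted p = 1.69e-09). That sequence held 32 tested sites, of which 13 fell, with a median level of 35.9% with ascorbic acid and 58.2% in control. The gap between these medians overstates the typical site there, whose median change was -4.19 points.

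In the span of NADSYN1, which encodes NAD synthetase, the site at chromosome 11, position 71477323, plus strand, held 29.7% and 37.9% with ascorbic acid, against 76.6% and 84.4% in control (edgeR adjusted p = 1.40e-08). DHX32, a helicase-family gene, had 21.7% and 38.2% with ascorbic acid and 71.2% and 72.7% in control at chromosome 10, position 125885422, minus strand (edgeR adjusted p = 1.33e-06). The spread of the treated pair was wide there, 29.9% ± 11.7 (SD, n = 2), but both stayed well below the controls. TNPO2, a nuclear import receptor gene, had 42.9% and 41.0% with ascorbic acid and 81.1% and 84.1% in control at chromosome 19, position 12723508, minus strand (edgeR adjusted p = 3.56e-07).

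FKBP10, the gene of a prolyl isomerase of the endoplasmic reticulum, had its site 1195 nt before the end of the gene at chromosome 17, position 41822018, plus strand. It held 37.8% and 37.3% with ascorbic acid, against 72.5% and 77.1% in control (edgeR adjusted p = 1.06e-07). A site 471 nt before the start of EFNA5, an ephrin ligand gene, at chromosome 5, position 107671408, minus strand, held 33.3% and 38.04% with ascorbic acid, against 72.2% and 70.9% in control (edgeR adjusted p = 2.05e-07). The remaining 3 of the 10 lay at pseudogenes. The one opposite EEF1DP1 (chromosome 19, position 14070443, minus strand) held 43.1% and 44.6% with ascorbic acid, against 81.7% and 88.2% in control (edgeR adjusted p = 2.83e-08). The one 127 nt from ILRUNP1 (chromosome 2, position 106345330, plus strand) held 41.4% and 49.6% with ascorbic acid, against 84.0% and 83.8% in control (edgeR adjusted p = 3.49e-09). The one 42 nt from IGF2BP3P2 (chromosome 7, position 56597506, plus strand) held 31.6% and 33.3% with ascorbic acid, against 67.9% and 68.3% in control (edgeR adjusted p = 6.64e-06). Each of these 10 falls passed under every alternative run for it.

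Rises were few and less stable. The 13 risen sites averaged 52.3% ± 0.077 with ascorbic acid and 30.8% ± 3.56 in control (SD of library medians, n = 2 each), and 4 changed by more than 20 points. With at least 50 reads in every library, groups that did not overlap and 1 site per cluster, 4 remained. The site 5 nt before the start of OXA1L, the gene of an insertase of the inner mitochondrial membrane, at chromosome 14, position 22766683, plus strand, held 49.3% and 62.0% with ascorbic acid, against 42.3% and 40.8% in control (edgeR adjusted p = 0.0467), and is not in DRACH. One opposite LINC01122 (chromosome 2, position 58759746, minus strand) held 32.6% and 43.9% with ascorbic acid, against 23.8% and 23.2% in control (edgeR adjusted p = 0.0236). One opposite TKT, the transketolase gene (chromosome 3, position 53233730, plus strand), held 33.3% and 25% with ascorbic acid, against 13.5% and 16.7% in control (edgeR adjusted p = 0.0472). One 7650 nt from LINC02639 (chromosome 10, position 3826300, plus strand) held 25.1% and 33.7% with ascorbic acid, against 22.2% and 16.7% in control (edgeR adjusted p = 0.0367). None of the 4 passed with DESeq2, and none passed without ascorbic acid library 2 or without control library 2.

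The deepest sites covered the whole range of levels and responses. A minus-strand site 76 nt before TUBBP2, a tubulin pseudogene (chromosome 13, position 41385152), had 9150 to 10604 reads per library and held 16.5% and 17.3% with ascorbic acid, against 17.6% and 19.4% in control (edgeR adjusted p = 0.186). A minus-strand site in the span of HFM1, a meiotic helicase gene (chromosome 1, position 91387534), was almost fully read as A in all libraries, at 98.6% and 98.7% with ascorbic acid against 98.8% and 98.9% in control (edgeR adjusted p = 0.243). A plus-strand site in the span of FMO1, a flavin monooxygenase gene (chromosome 1, position 171252611), held 12.2% and 12.4% with ascorbic acid, against 12.9% and 14.1% in control (edgeR adjusted p = 0.215). None of these 3 passed with all 4 libraries in edgeR. Without control library 1 the TUBBP2 site passed at an adjusted p of 0.0247 and the FMO1 site at 0.0485 in edgeR. Fisher's exact test on pooled reads also passed both, at adjusted p of 0.000719 and 0.0122, and limma with the unconverted share taken off passed the HFM1 site at 0.0425.

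The other two of the 5 deepest, opposite UBE2G1, a ubiquitin-conjugating enzyme gene, both fell. At chromosome 17, position 4349456, plus strand, the level was 57.9% and 59.98% with ascorbic acid, against 72.9% and 73.7% in control, on 6987 to 8887 reads per library (edgeR adjusted p = 1.22e-12). At position 4349440, a few bases before it, it was 21.4% and 21.7% with ascorbic acid, against 30.7% and 30.9% in control (edgeR adjusted p = 5.14e-09). A pair this close shares reads and is not independent.

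Neighbouring sites were joined into clusters when no more than 1000 nt apart on the same strand, which gave 3311 clusters, of which 1960 were single sites and 274 held 5 or more. With A and G reads summed per cluster, edgeR passed 490 as fallen (14.8%) and 9 as risen, against 39.2% and 0.385% of all 21311 clusters of the series. The median log2 odds ratio of A, ascorbic acid over control, was -0.26, against -0.37 over all clusters. Falls numbered 294 without ascorbic acid library 1, 257 without ascorbic acid library 2 and 326 without control library 2. By size, 10.8% of single sites fell, 16.7% of clusters of 2 to 4, 62 of 201 clusters of 5 to 9 (30.8%) and 37 of 73 clusters of 10 or more (50.7%). In named genes the shares were 24.2%, 46.4%, 65.8% and 69.7%. The size of the change showed no such climb in no named gene, with median log2 odds ratios of -0.28, -0.23, -0.30 and -0.28 in the same order. Larger clusters sum reads over more sites. Of the 73 clusters of 10 or more sites, 72 had a lower summed level with ascorbic acid. Of 708 clusters with at least 3 sites, 186 fell and none rose, and none was higher at an unadjusted p under 0.05 by edgeR or limma. The lack of rises is not particular to this part. In named genes, too, none of 3152 clusters of 5 to 9 sites and none of 1768 clusters of 10 or more sites rose.

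The largest fall among clusters of at least 3 sites was the SMTN one on chromosome 22 (31080601 to 31080699, plus strand), whose 4 sites together held 30.2% and 30.8% with ascorbic acid, against 64.9% and 66.6% in control (log2 odds ratio -2.13, edgeR adjusted p = 5.28e-11). All 4 of its sites were below both controls in both treated libraries. In the span of AUTS2, a gene expressed in developing brain, 3 sites on chromosome 7 (70694863 to 70694898, plus strand) held 34.3% and 33.2% with ascorbic acid, against 63.2% and 67.4% in control (log2 odds ratio -1.91, edgeR adjusted p = 3.81e-09). Near LINC02604, 8 sites on chromosome 7 (66902281 to 66904018) held 56.2% and 54.7% with ascorbic acid, against 76.1% and 81.1% in control (log2 odds ratio -1.59, edgeR adjusted p = 1.58e-06). At LOC101927999, 5 sites on chromosome 16 (90171156 to 90171781) held 45.5% and 44.7% with ascorbic acid, against 70.0% and 71.8% in control (log2 odds ratio -1.58, edgeR adjusted p = 5.39e-08). The other of the 5 largest falls was 3 sites on the unplaced sequence Un_KI270745v1, at 43.6% and 35.4% with ascorbic acid, against 71.6% and 65.8% in control (log2 odds ratio -1.72, edgeR adjusted p = 9.46e-05). These 5 falls also passed with limma, with the replicate number as a block and with each library left out in turn.

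In the clusters with most sites, high and low sites lay side by side. The chain with most sites, 40, lay in DUXAP10, a transcribed pseudogene of the double homeobox family, on chromosome 14 (19298907 to 19303220, minus strand). Its sites together held 43.4% and 43.3% with ascorbic acid, against 48.7% and 49.7% in control (log2 odds ratio -0.34, edgeR adjusted p = 0.000221). Of these sites 34 were lower by any amount, 27 were below both controls and 12 fell. In CSNK1E, the casein kinase 1 epsilon gene, 25 sites on chromosome 22 (38296256 to 38298751, minus strand) held 40.1% and 39.5% with ascorbic acid, against 46.7% and 46.2% in control (log2 odds ratio -0.39, edgeR adjusted p = 8.02e-05), and 10 fell. A cluster in the span of WDR27, a WD-repeat protein gene, on chromosome 6 (169664330 to 169668699, minus strand) also had 25 sites and is not plotted. It held 41.4% and 38.9% with ascorbic acid, against 47.5% and 49.1% in control (log2 odds ratio -0.49, edgeR adjusted p = 0.00033), and 9 of its sites fell.

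The other 3 plotted clusters had smaller differences. Beyond the 3' end of PUSL1, a pseudouridine synthase-like gene, 38 sites on chromosome 1 (1311679 to 1315628, plus strand) held 51.7% and 51.5% with ascorbic acid, against 54.6% and 55.8% in control (log2 odds ratio -0.21, edgeR adjusted p = 0.0474). Near FOXCUT, a long non-coding RNA gene next to FOXC1, 27 sites on chromosome 6 (1604227 to 1609586, minus strand) held 46.5% and 46.8% with ascorbic acid, against 49.3% and 51.9% in control (log2 odds ratio -0.23, edgeR adjusted p = 0.0343). Both calls were lost with limma (adjusted p = 0.0641 and 0.0530). In edgeR they were lost without control library 2 (adjusted p = 0.100 and 0.149), ascorbic acid library 1 (0.231 and 0.227) or ascorbic acid library 2 (0.275 and 0.196). Opposite TKT, 35 sites on chromosome 3 (53228531 to 53232620, plus strand) held 47.9% and 46.2% with ascorbic acid, against 50.2% and 49.5% in control, and did not pass (edgeR adjusted p = 0.0816); without control library 2 it passed at 0.0231.

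**Figure D4:**
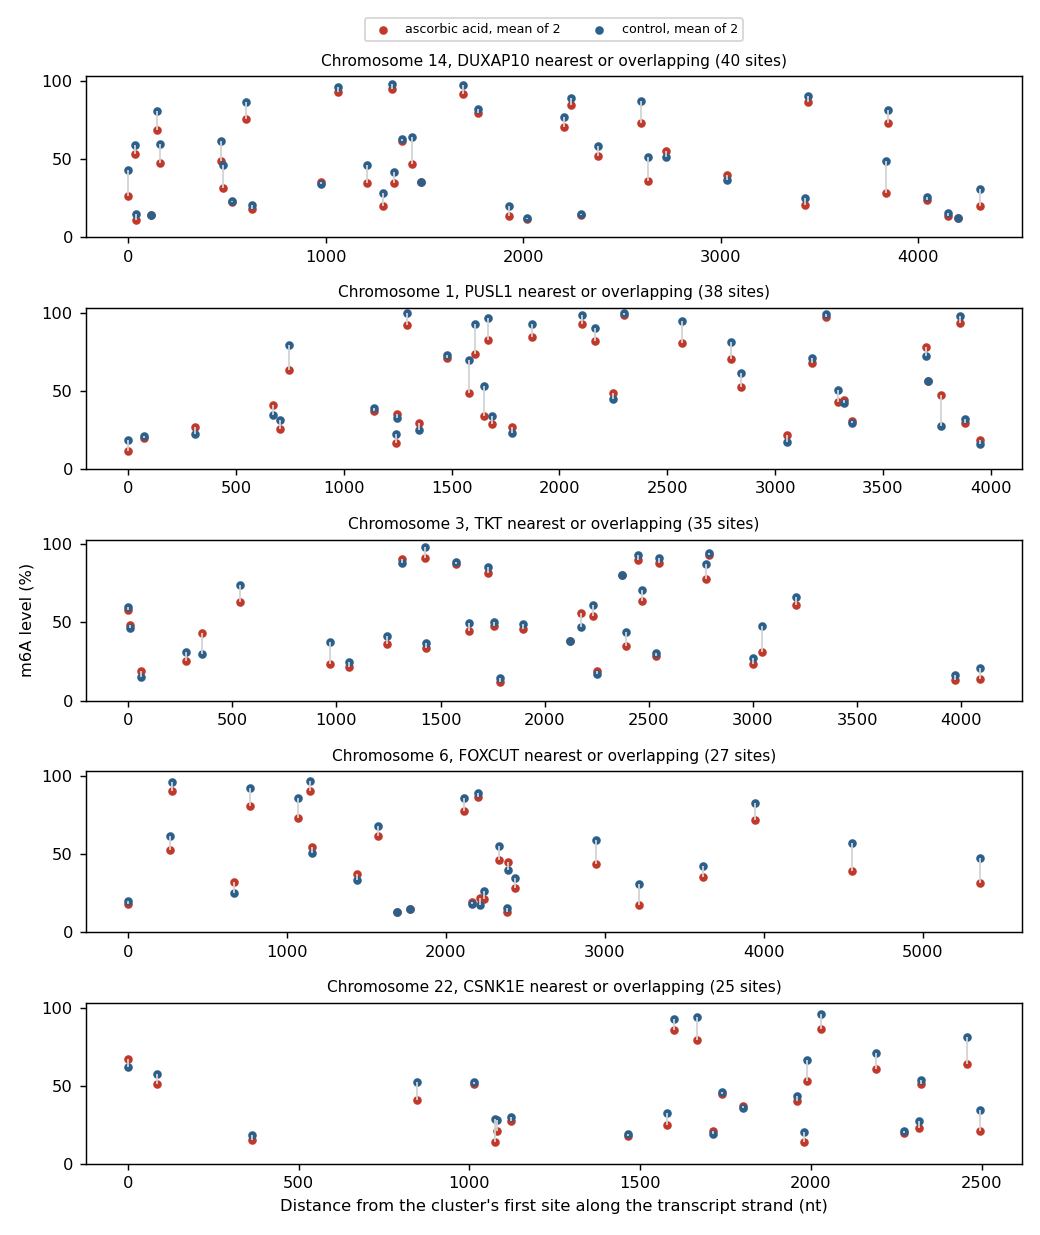
Mean m6A level (percent, y axis) of each site in the 5 clusters with most tested sites, against distance along the transcript strand from the cluster's first site (nt, x axis), ascorbic acid in red and control in blue joined by a line. In the DUXAP10 cluster, 34 of 40 sites are lower with ascorbic acid, and high and low sites alternate along each cluster.

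By local density, counted as other sites listed in all libraries within 100 nt on the same strand, 3328 sites (47.3%) stood alone, against 32.6% in named genes. Lone sites held 32.4% ± 0.16 with ascorbic acid and 37.2% ± 1.02 in control, and 349 fell (10.5%). Sites with 1 or 2 neighbours (3237 sites, 46.0%) held 38.5% with ascorbic acid and 43.3% in control, and 372 fell (11.5%). Sites with 3 to 5 neighbours (466 sites, 6.63%) held 35.7% ± 0.96 with ascorbic acid and 40.5% ± 1.62 in control (SD, n = 2 each), and 83 fell (17.8%). The median change was -3.71 points at lone sites, -3.29 with 1 or 2 neighbours and -3.83 with 3 to 5. The median depth was 50, 62.25 and 84.4 reads in the same order. Another site exactly 6 nt away was found for 286 sites (4.07%), against 3.98% in named genes.

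Every one of the 22 chromosomes with at least 100 tested sites in no named gene had a negative median change, from -4.33 points on chromosome 9 to -2.27 on chromosome 6. On all 22 it was smaller in size than the median change in named genes. The share of sites that fell lay between 6.83% on chromosome 8 (14 of 205) and 17.1% on chromosome 4 (38 of 222). In named genes it was 22.5% on chromosome 8 and 26.4% on chromosome 4. Chromosome 1 held most sites (668), then 19 (577) and 16 (539). Sites without a name made up 11.8% of the tested sites of chromosome 19 and 11.6% of those of chromosome 16, against 6.31% on chromosome 15. No site of the mitochondrial genome passed the rule, of 18 listed there in any library.

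**Figure D5:**
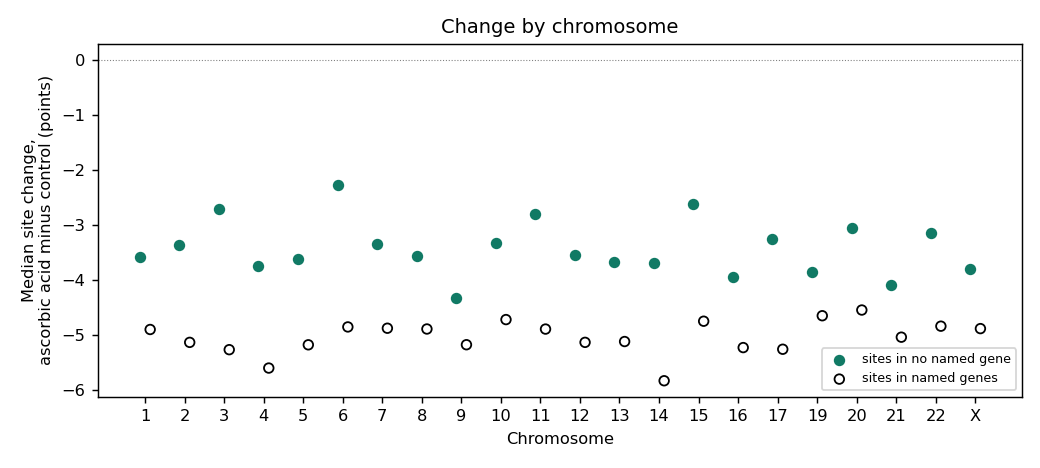
Median change in m6A level (ascorbic acid minus control, percentage points, y axis) per chromosome (x axis) for sites in no named gene (filled) and in named genes (open), for the 22 chromosomes with at least 100 of the former. The filled points run from -4.33 to -2.27 and lie above the open point of the same chromosome each time.

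At the edge of the read rule, the 448 sites whose lowest library had 20 or 21 reads held 45.3% ± 1.21 with ascorbic acid and 52.0% ± 0.49 in control, and the 477 with 18 or 19 reads, left out, held 50.0% with ascorbic acid and 55.5% ± 1.40 in control (SD of library medians, n = 2 each). Every listed site had at least 5 reads of A, so low levels could not be listed at these depths. No tested site lay inside an annotated miRNA hairpin, and 12 lay within 200 nt of one on the same strand.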

How the data were processed

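GLORI was applied to messenger RNA of 2 ascorbic acid and 2 control samples of HEK293T cells. Per the submitters' processing notes, Trimmomatic 0.39, STAR and hg38/GRCh38 were used; no site caller is named in the sources at hand. Each library is a table of sites. The A plus G and A read counts are the authors' deposited counts, unscaled. The level and the conversion rate are fractions deposited by the authors, the gene coverage a deposited signal (not analysed here), and the p-value of each site the authors' own test against background, per the file headers. No listed site had under 15 reads, under 5 reads of A or a level under 10%, so losses to below these limits are not seen. At a shallow site the limit of 5 reads of A stands at a level above 10%, so larger remaining levels are also left out there. The part of this limit in the comparisons by depth and with named genes was not tested.

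Levels were recomputed from the counts. All 78509 sites listed in 4 libraries with 20 or more reads per library entered edgeR 4.0.16 (quasi-likelihood, A and G reads, a term per library and ascorbic acid acting on the odds of A), two-sided, Benjamini-Hochberg threshold 0.05, after a test on simulated data. Clusters joined sites at most 1000 nt apart. Alternatives used limma 3.58.1, DESeq2 1.42.0, Fisher's exact test on pooled reads, other read limits and leaving out each library. R 4.3.3, Python 3.11.15, numpy 2.4.6, pandas 2.3.3, scipy 1.17.1 and matplotlib 3.10.9 were used. Sites named are the 10 largest falls and rises past the threshold with at least 50 reads and groups that do not overlap, 1 per cluster, and the 5 deepest; clusters named are the 5 largest falls of at least 3 sites and the 5 with most sites. Further sites in promoter windows were printed for their sequence. Gene spans, windows and sequences are RefSeq GRCh38.p14; strand was known for 33307 of 59792 genes. The members and lists were chosen with earlier results of these data known. Reads carry counting error, and a deeper site has the smaller one.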

Additional observations from a re-analysis of the deposited data

Results flagged for a closer look

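Of the sites in no named gene that the tests leave out, 1003 were listed in both ascorbic acid libraries and in neither control library, and 787 in both control libraries and in neither ascorbic acid library. They drew attention because they are a signal outside the sites compared. The first set had a median level of 28.6% and 26.3% in its 2 libraries, at a median of 24 and 28 reads, and the second 23.8% and 22.7%, at 27 and 30 reads. In named genes the order was the other way round, with 5023 sites listed with ascorbic acid alone and 5877 with control alone. A site that is not listed has no value here, so neither set can be read as gained or lost.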

How the results depend on the processing

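The lower median level of sites in no named gene kept its direction under every alternative run. The changes by density were rerun only with a 500 nt window, and those by position class only with a 5000 nt limit beyond 3' ends. Both kept their direction there. Counts of calls moved more. Those with at least 50 reads were taken over 3197 sites and those outside RefSeq spans over 3313, against 7031 in the main run. These 2 settings test fewer sites, so their lower counts are not calls lost from the same set. Falls numbered 229 with DESeq2, 526 with at least 50 reads, 379 outside RefSeq spans and 402 to 617 with 1 library left out, against 804. Rises numbered 0 with DESeq2, 5 with limma, 8 with at least 50 reads, 7 with the unconverted share taken off and 5 to 11 with 1 library left out, against 13. Fallen clusters numbered 257 to 496 and risen ones 5 to 14 with 1 library left out, against 490 and 9. The smaller fall than in named genes, 2.61 points, was 2.41 by means, 1.81 by summed reads, 2.41 with no read minimum, 2.85 with at least 50 reads, and 1.08, 3.19 and 2.36 at mean levels of 10 to 30%, 60 to 90% and above 90%. The DRACH split was an alternative chosen after seeing the data.

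The labels do not say whether replicate numbers pair the libraries. Deviations of same-numbered libraries correlated at -0.0085 over these sites. Counting error at shallow sites can hide a pairing, so this value does not settle it. With the replicate number as a block, 837 sites fell and 14 rose, and 433 clusters fell and 6 rose. The block also lost the falls of the PUSL1 and FOXCUT clusters (edgeR adjusted p = 0.0713 and 0.0515). Among the named sites that did not pass, the log2 odds ratio changed sign with 1 library left out at FAU (-0.021 to 0.46), RPL36 (-0.11 to 0.12), UQCRH (-0.32 to 0.0038) and RPL36A (-0.20 to 0.074). The cause of these shifts was not tested. Depth limits small changes: at 20 to under 40 reads, 7.91% of sites passed as fallen, against 21.4% at 160 or more.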
